A study of Homo sapiens with 6 samples.

Results

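The genes of eIF2, its exchange factor eIF2B, a pair of eIF2α kinases and the eIF4E-binding protein 4E-BP1 were followed in SCC25 cells under endoplasmic reticulum (ER) stress. The 10 genes were EIF2S1, EIF2S2, EIF2B1, EIF2B2, EIF2B3, EIF2B4, EIF2B5, EIF2AK1, EIF2AK2 and EIF4EBP1, taken by their symbols in the annotation of the array, out of 22411 genes that have a transcript cluster with 1 symbol. Each of the 10 had 1 such cluster. SCC25 is a human tongue squamous cell carcinoma line, and it was exposed for 6 h to tunicamycin (TM, 5 µg mL−1, n = 3 arrays) or to the vehicle DMSO (0.1%, control, n = 3 arrays). TM stops the transfer of N-linked sugars to new proteins, which then misfold in the ER. The series describes the 3 samples of each group as independent biological replicates. The line is SCC25 in all label fields but one, which has SCC28 for the TM arrays.

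The factor eIF2 brings the initiator tRNA to the small ribosomal subunit, and it must be recharged with GTP by eIF2B after each round. Stress kinases phosphorylate the α subunit of eIF2, which then binds eIF2B tightly and slows the start of translation, while a few mRNAs such as that of ATF4 are translated more. PERK is the kinase of this family that sits in the ER membrane, and GADD34 brings a phosphatase to eIF2 that ends the block. These steps act on proteins, while the arrays measured the RNA of their genes.

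The deposited values are on the log2 scale, 1 per transcript cluster and array, so a difference of 1 is a doubling of the signal. The array medians were 5.49 to 5.52 in the TM arrays and 5.39 to 5.48 in the control arrays. Of 15 squamous epithelial markers 11 were measured, with means from 8.76 to 13.19, while the 8 leukocyte markers lay between 3.26 and 6.76, the 6 endothelial markers between 4.06 and 7.04 and the 8 fibroblast markers between 4.53 and 7.81. The mean of the endothelial markers was 5.35 to 5.38 in the TM arrays and 5.19 to 5.26 in the control arrays, that of the leukocyte markers 4.98 to 5.03 and 4.88 to 4.94, and the part of these dim clusters in the results was not tested. In the arrays labelled TM 3 and control 3 the ER stress genes went against their labels. DDIT3, which encodes the stress factor CHOP, was at 9.04, 8.88 and 5.86 in TM 1, 2 and 3 and at 6.02, 6.01 and 9.28 in control 1, 2 and 3. Every comparison is therefore given for all 6 arrays and again for replicates 1 and 2 alone. The choice of these replicates rests on ER stress genes, so a rise of such genes in replicates 1 and 2 is not independent evidence of a response.

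None of the 10 genes passed in either comparison, and the changes were small. At an adjusted p of 0.05 in limma, 0 of 10 were higher and 0 of 10 were lower with TM over all 6 arrays, where 0% of the 67528 clusters passed in each direction. In replicates 1 and 2 it was again 0 and 0 of 10, where 0.546% of all clusters were higher and 0.675% lower. An unadjusted p under 0.05 was reached by 0 of 10 genes over all 6 arrays (20.5% of all clusters) and by 1 of 10, EIF4EBP1, in replicates 1 and 2 (26.9%). Without moderation of the variances the counts were 3 of 10 (18.2%) and 4 of 10 (16.6%). With each array centred on its median the count over all 6 arrays was 5 of 10 (19.8%), all lower in TM, namely EIF2S1, EIF2B3, EIF2B5, EIF2AK1 and EIF2AK2, with adjusted p values in limma from 0.184 to 0.214. At an unadjusted p under 0.05 together with a 1.2-fold difference, the thresholds of the study, 0 of 10 were higher and 0 of 10 lower over all 6 arrays, against 4.24% and 1.68% of all clusters, and again 0 and 0 of 10 in replicates 1 and 2, against 6.96% and 7.60%. The median log2 fold change of the 10 genes was −0.07 with all 6 arrays, against 0.04 for all clusters, and −0.06 with replicates 1 and 2, against 0.04. With replicates 1 and 2 alone, no 95% confidence interval reached a log2 fold change below −0.46 or above 0.31.

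By the labels, 5 of the 10 genes had every TM array below every control array, and 0 of 10 had every TM array above. These were EIF2S1, EIF2B3, EIF2B4, EIF2B5 and EIF2AK2. Of all clusters 7.49% lay lower in this way and 20.5% higher, and of the 18215 mRNA clusters 11.3% and 27.1%. Among the 17005 clusters whose mean value was at or above that of EIF2B4, the lowest of the 10, the shares were 15.9% lower and 13.4% higher. After quantile normalization the same 5 genes lay lower (10.0% of all clusters), and with each array centred on its median EIF2AK1 joined them. The share of all clusters with this pattern was then 18.4%, and that of the clusters at or above the mean of EIF2B4 was 33.8%. Replicates 1 and 2 alone gave 6 genes lower, these 5 and EIF2AK1 (24.5% of all clusters), and 3 genes higher, EIF2S2, EIF2B2 and EIF4EBP1 (36.0%).

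**Figure D1:**
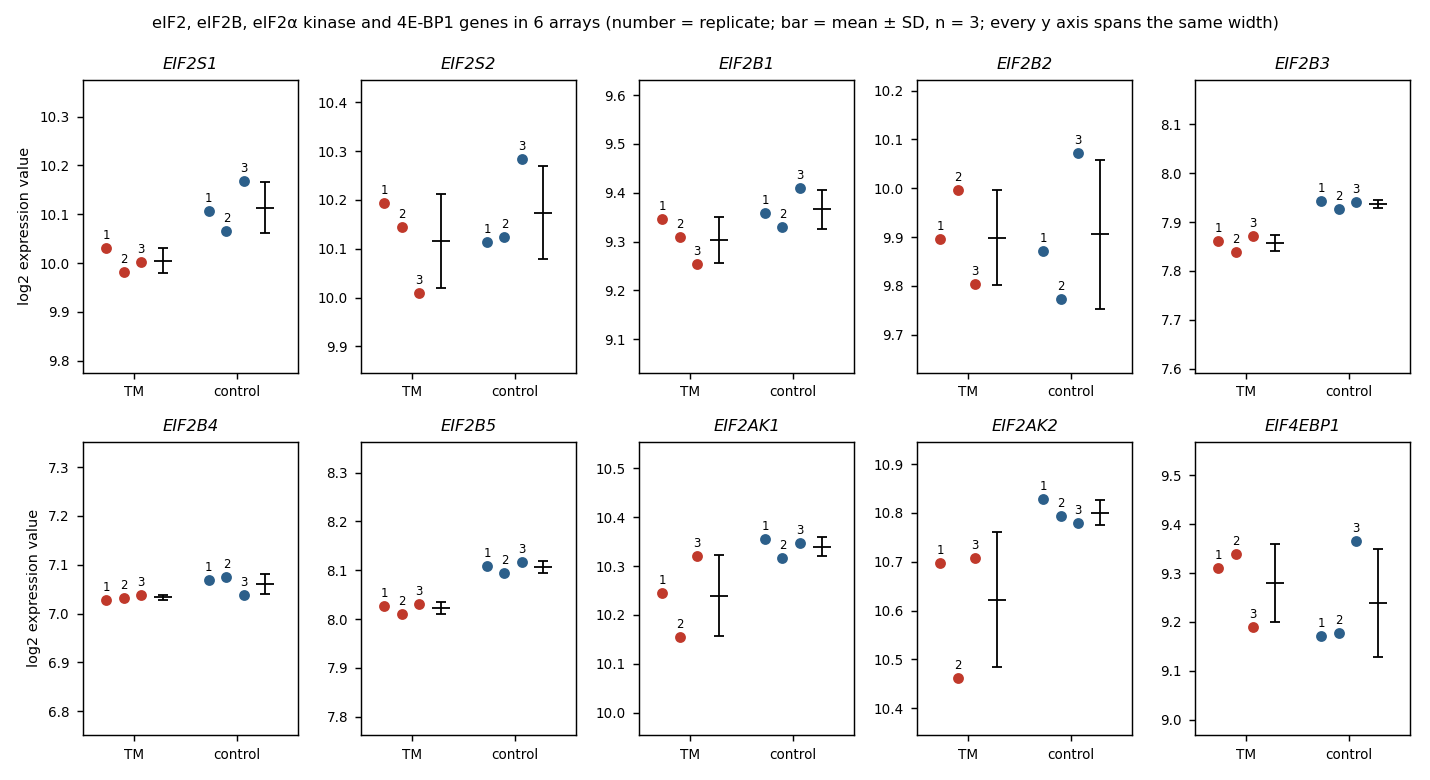
Log2 expression value of each of the 10 genes (y axis, the same width in every panel) in the 3 TM arrays (left, red) and the 3 control arrays (right, blue). The number at a point is its replicate, and the bar gives the mean ± SD of the group. EIF2B3 and EIF2B5 separate by 0.06 between the closest arrays of the groups, while in EIF4EBP1 the array labelled control 3 lies beside TM 1 and 2.

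Promoter windows are shown for 4 genes of differing pattern: EIF2AK2, EIF2S1 and EIF2B3, which lay lower in each TM array, and EIF2B2, which was high in control 3. The windows hold 250 bases before to 50 after the start of the gene, from RefSeq on GRCh38.p14, and 7 of the 10 genes matched. EIF2S2, EIF2AK1 and EIF4EBP1 had no window and were not searched. Capitals mark matches to the letters searched on both strands: GAAA and GAAA with 2 bases between them (core of the interferon-stimulated response element, ISRE) in EIF2AK2, GCGCA and GCGC with 1 base between them (site of the factor NRF1, which serves many housekeeping genes) on the reverse strand of EIF2S1 and EIF2B3, and CCGGAAG (core of ETS sites) in EIF2B2.
EIF2AK2, chr2:37156931-37157230, minus strand: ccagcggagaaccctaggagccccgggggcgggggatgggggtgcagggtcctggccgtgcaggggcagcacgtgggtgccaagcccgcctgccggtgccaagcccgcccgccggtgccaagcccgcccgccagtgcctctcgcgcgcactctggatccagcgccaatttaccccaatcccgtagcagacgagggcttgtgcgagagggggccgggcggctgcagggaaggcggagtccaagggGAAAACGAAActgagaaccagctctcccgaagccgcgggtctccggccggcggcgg
EIF2S1, chr14:67360078-67360377, plus strand: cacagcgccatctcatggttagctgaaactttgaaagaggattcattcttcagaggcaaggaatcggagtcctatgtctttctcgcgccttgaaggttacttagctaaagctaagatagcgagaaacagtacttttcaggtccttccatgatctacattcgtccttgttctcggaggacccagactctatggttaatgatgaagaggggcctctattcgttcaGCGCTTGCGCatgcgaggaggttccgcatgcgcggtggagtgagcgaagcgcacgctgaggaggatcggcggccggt
EIF2B3, chr1:44986546-44986845, minus strand: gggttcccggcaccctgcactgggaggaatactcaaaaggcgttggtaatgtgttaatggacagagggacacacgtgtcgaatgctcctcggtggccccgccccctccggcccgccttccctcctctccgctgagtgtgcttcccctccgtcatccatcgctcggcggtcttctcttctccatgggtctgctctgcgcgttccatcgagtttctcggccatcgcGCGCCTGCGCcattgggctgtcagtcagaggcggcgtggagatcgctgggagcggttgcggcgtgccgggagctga
EIF2B2, chr14:75002671-75002970, plus strand: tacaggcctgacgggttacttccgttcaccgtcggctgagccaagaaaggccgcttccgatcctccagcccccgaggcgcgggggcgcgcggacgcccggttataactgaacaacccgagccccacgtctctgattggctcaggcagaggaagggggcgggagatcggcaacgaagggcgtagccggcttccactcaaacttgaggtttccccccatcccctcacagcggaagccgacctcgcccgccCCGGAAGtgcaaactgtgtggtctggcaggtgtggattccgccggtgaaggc

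The ISRE letters began 6 bases before the start of EIF2AK2, and 3.57% of the 35116 windows hold them. The letters of NRF1 are in 5.78% of the windows and those of ETS sites in 10.3%. Of the 7 matched genes, EIF2B3 and EIF2S1 hold the former, and EIF2B1, whose window is not shown, and EIF2B2 the latter. The NRF1 and ETS motifs were chosen after the windows had been read. TGATGNAA, the core of the composite C/EBP-ATF site that ATF4 uses, is in 3.62% of all windows and in 0 of the 7 matched genes. EIF4EBP1 is not among these 7. The same was found for the ER stress response element (ERSE), CCAAT and CCACG with 9 bases between them (0.0769% of windows), and for the core of the unfolded protein response element, TGACGTGG (0.729%). The GC content of the windows of these genes ran from 51.7% to 72.3%, against a median of 58.7% over all windows.

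The subunits of eIF2 itself differed in pattern. EIF2S1, which encodes the α subunit that the stress kinases phosphorylate, was at 10.03, 9.98 and 10.00 in TM 1, 2 and 3 and at 10.11, 10.06 and 10.17 in control 1, 2 and 3. All 3 TM arrays lay below all 3 control arrays, with 0.03 between the closest. The means were 10.01 ± 0.025 in TM and 10.11 ± 0.052 in control (SD, n = 3 each), a log2 fold change of −0.11 (standard error 0.051, adjusted p = 0.279 from limma). With replicates 1 and 2 alone it was −0.08 (adjusted p = 0.446 from limma).

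EIF2S2 encodes the β subunit, which contacts eIF5 and helps to hold the initiator tRNA. Its value was 10.19, 10.14 and 10.01 in TM 1, 2 and 3 and 10.11, 10.12 and 10.28 in control 1, 2 and 3. Control 3 was the highest array and TM 3 the lowest, and the other 4 arrays lay within 0.08 of each other. The groups overlap. Its log2 fold change was −0.06 over all 6 arrays (adjusted p = 0.676 from limma) and 0.05 in replicates 1 and 2 (adjusted p = 0.624 from limma), so the direction depends on the replicate 3 arrays. EIF2S3, which encodes the γ subunit that binds GTP, is not among the 10. It was at 11.08, 10.97 and 11.02 in TM 1, 2 and 3 and at 11.09 and 11.13 in control 1 and 3, with control 2 between TM 2 and TM 3. The groups overlap, with a log2 fold change of −0.05 over all 6 arrays and −0.02 in replicates 1 and 2.

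The catalytic subunits of eIF2B gave a small spread between replicates and a complete separation of the groups. EIF2B5 encodes the ε subunit, which carries the exchange activity. It was at 8.03, 8.01 and 8.03 in TM 1, 2 and 3 and at 8.11, 8.09 and 8.12 in control 1, 2 and 3. EIF2B3 encodes the γ subunit, its partner in the catalytic part, and was at 7.86, 7.84 and 7.87 in the TM arrays and 7.94, 7.93 and 7.94 in the control arrays. For both genes TM 3 lay with the other TM arrays and control 3 with the other controls, unlike DDIT3. The means of EIF2B5 were 8.02 ± 0.012 in TM and 8.11 ± 0.012 in control, and those of EIF2B3 were 7.86 ± 0.016 and 7.94 ± 0.0084 (SD, n = 3 each). The log2 fold change of EIF2B5 was −0.08 (adjusted p = 0.328 from limma), with a 95% confidence interval from −0.19 to 0.02. That of EIF2B3 was −0.08 (adjusted p = 0.346 from limma), with an interval from −0.19 to 0.03. In an unmoderated test, which uses only the variance of each gene itself, the adjusted p was 0.164 for both genes. The log2 fold changes in replicates 1 and 2 were −0.08 for EIF2B5 and −0.09 for EIF2B3.

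The regulatory subunits of eIF2B, which bind phosphorylated eIF2, had log2 fold changes from −0.06 to −0.01 over all 6 arrays and from −0.04 to 0.12 in replicates 1 and 2. EIF2B1 encodes the α subunit and was at 9.35, 9.31 and 9.25 in TM 1, 2 and 3 and at 9.36, 9.33 and 9.41 in control 1, 2 and 3. TM 3 was its lowest array and control 3 its highest, and in replicates 1 and 2 the groups overlap. The log2 fold change was −0.06 over all 6 arrays (adjusted p = 0.509 from limma) and −0.02 in replicates 1 and 2 (adjusted p = 0.877 from limma).

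EIF2B2, the gene of the β subunit, had the widest spread of the eIF2B genes. It was at 9.90, 10.00 and 9.80 in the TM arrays and at 9.87, 9.77 and 10.07 in the control arrays. Control 3 was the highest array, followed by TM 2 and TM 1, and the groups overlap. The group means were 9.90 ± 0.10 in TM and 9.91 ± 0.15 in control (SD, n = 3 each). Its log2 fold change was −0.01 over all 6 arrays (adjusted p = 0.974 from limma) and 0.12 in replicates 1 and 2 (95% confidence interval −0.06 to 0.31, adjusted p = 0.321 from limma). Of the 394 genes outside the 10 with an SD of at least 0.3 over the arrays, ZNF474, TNFAIP6 and IL24 had the values most like those of EIF2B2, with a Pearson r of 0.986, 0.955 and 0.939 over the 6 arrays, given as a description.

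EIF2B4 encodes the δ subunit and had the smallest difference of the genes that lay lower in TM. It was at 7.03, 7.03 and 7.04 in TM 1, 2 and 3 and at 7.07, 7.08 and 7.04 in control 1, 2 and 3. The groups do not overlap, but TM 3 and control 3 differ by only 0.000151. The log2 fold change was −0.03 over all 6 arrays (adjusted p = 0.749 from limma) and −0.04 in replicates 1 and 2 (adjusted p = 0.674 from limma).

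**Figure D2:**
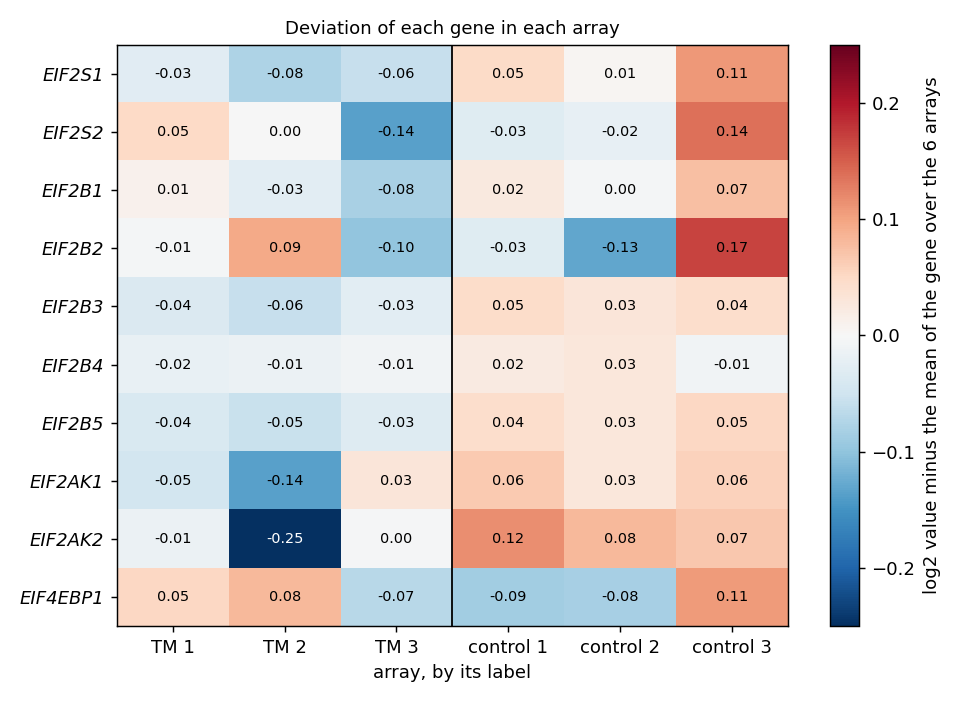
Log2 value of each gene in each array minus the mean of that gene over the 6 arrays, with TM 1 to 3 on the left and control 1 to 3 on the right (red above the mean, blue below). EIF2B3 and EIF2B5 are below their mean in every TM array and above it in every control array, EIF4EBP1 is above its mean in TM 1, TM 2 and control 3, and the deviation of EIF2AK2 in TM 2 is −0.25.

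The kinase genes EIF2AK1 and EIF2AK2 were lowest in the array TM 2. EIF2AK2 encodes PKR, which double-stranded RNA activates and interferon induces, and it was at 10.70, 10.46 and 10.71 in TM 1, 2 and 3 and at 10.83, 10.79 and 10.78 in control 1, 2 and 3. TM 2 lay far below the other TM arrays, and all TM arrays lay below all control arrays. The means were 10.62 ± 0.14 in TM and 10.80 ± 0.025 in control (SD, n = 3 each). This was the largest difference of the 10 genes, a log2 fold change of −0.18 (standard error 0.076, adjusted p = 0.247 from limma). Its signal in TM was 0.884 of that in control. Replicates 1 and 2 gave −0.23 (adjusted p = 0.188 from limma). Without TM 2 the values were −0.10 over the remaining 5 arrays (adjusted p = 0.481 from limma) and −0.11 in replicates 1 and 2 (adjusted p = 0.507 from limma). Among the same 394 genes, those most like EIF2AK2 over the 6 arrays were HSP90AA4P, SNORD1B and MIR2355, a pseudogene and small RNA genes, with a Pearson r of 0.968, 0.962 and 0.955.

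EIF2AK1 encodes HRI, the kinase that heme restrains and that also relays mitochondrial stress. Its value was 10.24, 10.15 and 10.32 in the TM arrays and 10.35, 10.32 and 10.35 in the control arrays. TM 3 lay just above control 2, so the groups overlap by that array, and TM 1 and TM 2 were below every control. The log2 fold change was −0.10 over all 6 arrays (adjusted p = 0.360 from limma) and −0.14 in replicates 1 and 2 (adjusted p = 0.246 from limma). Without TM 2 they were −0.06 and −0.09.

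EIF2AK2 is an interferon-stimulated gene, and 27 of 30 other genes of that class were measured. Of them 0 were called over all 6 arrays in limma, and in replicates 1 and 2 IFIT2 rose (log2 fold change 0.51, adjusted p = 0.0486 from limma) and 0 fell. This call ended when any of the 4 arrays was left out, at adjusted p values from 0.0898 to 0.188 in limma, after quantile normalization (0.0583), when replicate number was a block (0.107) and in an unmoderated test (0.270). In replicates 1 and 2 OASL was at 0.46 and IRF7 at 0.36, and neither passed. Over all 6 arrays IFIT2 was at 0.12, OASL at 0.17 and IRF7 at 0.22. The value of IFIT2 was 7.32, 7.21 and 6.67 in the TM arrays and 6.73, 6.78 and 7.34 in the control arrays. IFIT2 and OASL thus went with DDIT3, so their rise in replicates 1 and 2 is not independent evidence of a response. By the labels over all 6 arrays, IFI44 had every TM array below every control array, as EIF2AK2 did (7.49% of all clusters), and ISG15, ISG20, MX1 and MX2 had every TM array above (20.5%), genes named after their values were seen. The log2 fold change in replicates 1 and 2 was −0.35 for IFI44 (adjusted p = 0.198 from limma) and 0.36 for ISG15 (adjusted p = 0.0634 from limma). Over all 6 arrays it was −0.26 for IFI44 and 0.28 for ISG15. The median log2 fold change of the list was 0.17 in replicates 1 and 2, where EIF2AK2 was at −0.23, and 0.04 over all 6 arrays (−0.03 with each array centred on its median).

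EIF4EBP1 had the pattern of DDIT3 across the arrays, on a much smaller scale. It encodes 4E-BP1, which binds the cap-binding protein eIF4E and blocks it until mTORC1 phosphorylates it, and ATF4 is known to raise this gene in mouse pancreatic beta cells. It was at 9.31, 9.34 and 9.19 in TM 1, 2 and 3 and at 9.17, 9.18 and 9.37 in control 1, 2 and 3. TM 1, TM 2 and control 3 were the 3 highest arrays, and TM 3 lay beside control 1 and 2. The group means were 9.28 ± 0.080 in TM and 9.24 ± 0.11 in control (SD, n = 3 each), and the log2 fold change over all 6 arrays was 0.04 (adjusted p = 0.775 from limma), or −0.03 with each array centred on its median. Replicates 1 and 2 gave 0.15, with a 95% confidence interval from 0.0028 to 0.30 (unadjusted p = 0.0471 and adjusted p = 0.180 from limma), which is 1.11-fold. It was 0.20 after quantile normalization and 0.11 with centring. The 95% confidence interval included 0 with centring (−0.040 to 0.26) and when replicate number was a block (−0.025 to 0.33). It excluded 0 under the other alternatives that kept all of these arrays. The Pearson r of EIF4EBP1 with DDIT3 was 0.982 over the 6 arrays, so its rise in replicates 1 and 2 is not independent evidence. The same holds for EIF2B2 (r = 0.846) and EIF2S2 (r = 0.799). In these too TM 3 lay nearer control 1 and 2, and control 3 nearer TM 1 and 2. For the other genes of the 10 the r ran from −0.726 (EIF2B4) to 0.494 (EIF2B1).

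**Figure D3:**
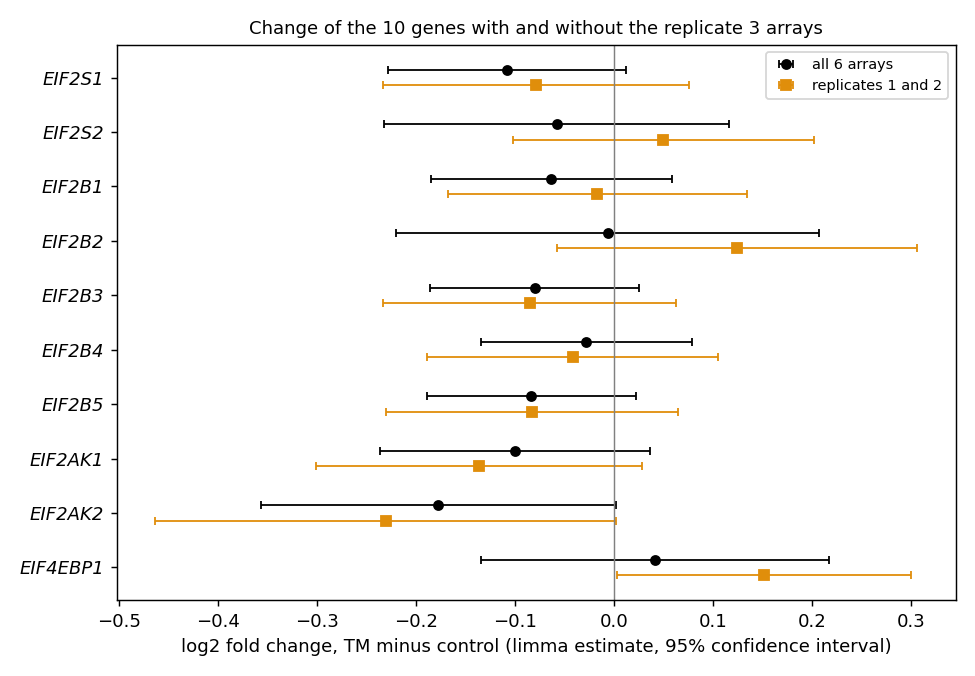
Log2 fold change of TM minus control for the 10 genes (x axis) with its 95% confidence interval, from all 6 arrays (black circles) and from replicates 1 and 2 alone (orange squares). With all 6 arrays each interval includes 0, and with replicates 1 and 2 only that of EIF4EBP1, from 0.0028 to 0.30, does not.

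The RNA of EIF4E, the gene of the protein that 4E-BP1 binds, and that of EIF4EBP2 went the other way in replicates 1 and 2. EIF4E was at 7.69, 7.60 and 7.94 in TM 1, 2 and 3 and at 7.95, 7.98 and 7.72 in control 1, 2 and 3. EIF4EBP2, which encodes the related 4E-BP2, was at 9.62, 9.58 and 10.08 in the TM arrays and 10.10, 10.02 and 9.67 in the control arrays. Both were low in TM 1, TM 2 and control 3, the arrays in which EIF4EBP1 was high. Their log2 fold changes in replicates 1 and 2 were −0.32 for EIF4E (adjusted p = 0.0702 from limma) and −0.45 for EIF4EBP2 (adjusted p = 0.0507 from limma), and over all 6 arrays they were −0.14 and −0.17. Neither passed, while with trend and robust options the adjusted p in replicates 1 and 2 was 0.0305 and 0.0144. EIF4E2, the gene of a cap-binding protein that represses translation, was at −0.27 in replicates 1 and 2 (adjusted p = 0.0798 from limma). Over all 6 arrays it was at −0.14. Of the 15 measured genes of cap binding and eIF4F out of 20, 0 were called in either direction in limma, with a median log2 fold change of −0.09 in replicates 1 and 2 and −0.08 over all 6 arrays.

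The other genes of the eIF2 cycle held the calls that the 10 genes did not give. Of 27 such genes 3 rose and 0 fell in replicates 1 and 2 in limma, and 0 were called over all 6 arrays. PPP1R15A encodes GADD34 and was at 8.37, 8.36 and 7.34 in TM 1, 2 and 3 and at 7.26, 7.21 and 8.29 in control 1, 2 and 3. EIF2AK3 encodes PERK and was at 8.40, 8.28 and 7.46 in the TM arrays and 7.54, 7.52 and 8.46 in the control arrays. Both went with DDIT3 in all 6 arrays, with TM 3 at the level of control 1 and 2. In replicates 1 and 2 the log2 fold changes were 1.13 for PPP1R15A (adjusted p = 0.00926 from limma), 1.19 for DNAJC3, the gene of a co-chaperone that inhibits PERK and PKR (adjusted p = 0.0130 from limma), and 0.81 for EIF2AK3 (adjusted p = 0.0237 from limma). Over all 6 arrays they were 0.44, 0.31 and 0.21. All 3 calls ended without control 2, TM 1 or TM 2, in an unmoderated test, and also when replicate number was a block, and that of EIF2AK3 also without control 1 (adjusted p values from 0.0549 to 0.256).

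Among the 4 eIF2α kinases, the 95% confidence interval of EIF2AK3 in replicates 1 and 2 ran from 0.64 to 0.98, against −0.30 to 0.03 for EIF2AK1 and −0.46 to 0.0023 for EIF2AK2. The difference between the kinases was not tested. EIF2AK4, which encodes GCN2, the sensor of uncharged tRNA, was at 8.81, 8.77 and 8.84 in TM and at 8.94, 8.93 and 8.90 in control. Its groups do not overlap, as with EIF2AK2, and its log2 fold change was −0.12 over all 6 arrays (adjusted p = 0.236 from limma) and −0.15 in replicates 1 and 2 (adjusted p = 0.185 from limma). PPP1R15B, the gene of the constitutive partner of the phosphatase, had log2 fold changes of −0.01 and 0.12 in these comparisons. EIF5B (−0.26), MCTS1 (−0.22) and BZW2 (−0.20) had the smallest p among the lower genes of the list in replicates 1 and 2. They did not pass, and over all 6 arrays they were at −0.18, −0.16 and −0.13. EIF5B joins the ribosomal subunits, MCTS1 is a factor of reinitiation and BZW2 is an eIF5 mimic.

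**Figure D4:**
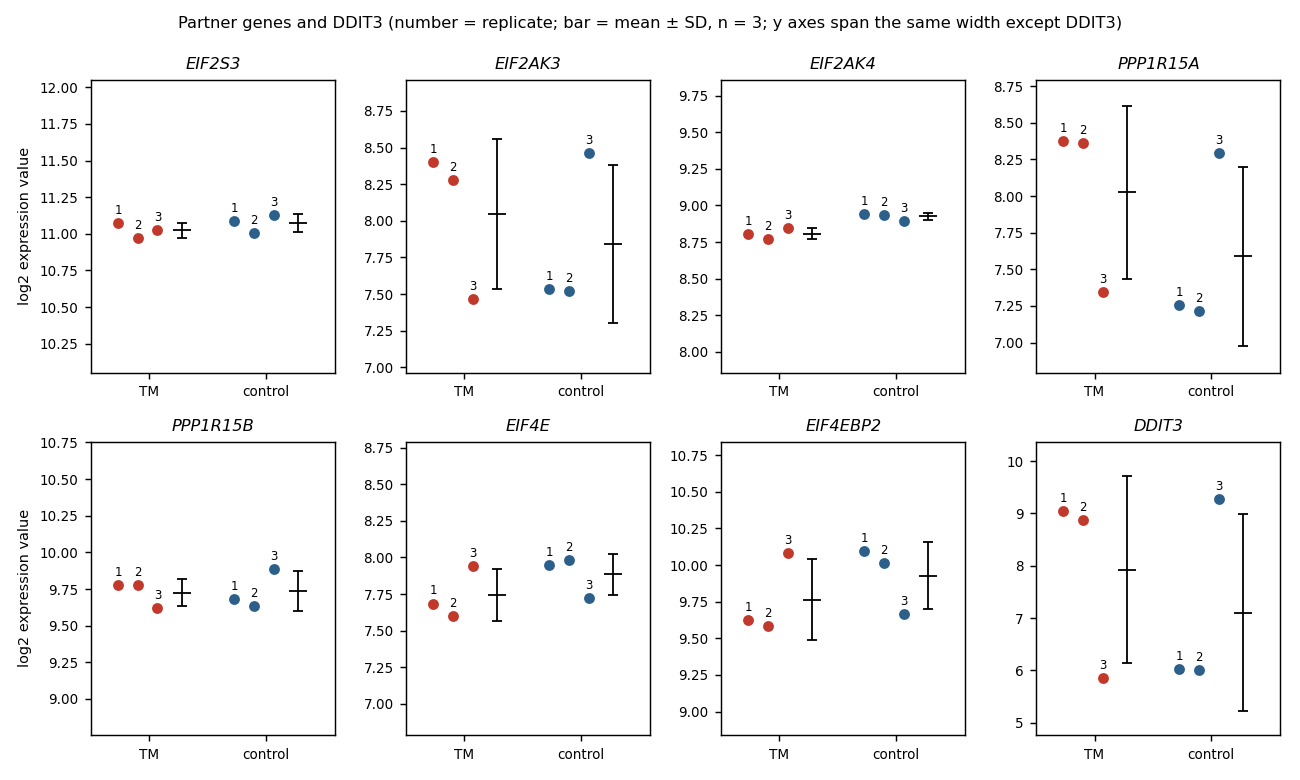
Log2 expression value (y axis) of partner genes of the eIF2 and eIF4E pathways and of DDIT3 in the 3 TM arrays (left, red) and the 3 control arrays (right, blue), with the replicate number at each point and the mean ± SD. In EIF2AK3, PPP1R15A and DDIT3 the array labelled TM 3 lies at the level of control 1 and 2 and control 3 at that of TM 1 and 2, in EIF4E and EIF4EBP2 the same arrays lie on the opposite side, and EIF2S3 and EIF2AK4 vary little.

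Known targets of ATF4 and CHOP were described in the same arrays. This list shares PPP1R15A with the eIF2 cycle list, and SESN2 and DDIT4 with the mTORC1 list. Of 30 measured targets 16 rose and 0 fell in replicates 1 and 2 in limma, with a median log2 fold change of 0.50, and 0 were called over all 6 arrays, where the median was 0.17. DDIT3 was at 2.94, HERPUD1 at 2.65 and the pseudokinase gene TRIB3 at 1.57 in replicates 1 and 2. Over all 6 arrays these genes were at 0.82, 0.77 and 0.58. The count was 8 without control 1, 6 without control 2, 0 without TM 1 or TM 2, 0 in an unmoderated test and 6 when replicate number was a block. Genes such as DDIT3 prompted the choice of these replicates, so this count is a description. Of 20 genes of mTORC1, the kinase complex that acts on 4E-BP1, SESN2 (1.59) was the 1 that rose in replicates 1 and 2 (0.546% of all clusters). Its product restrains mTORC1. Of the 20, 0 fell and 19 did not pass, among them DDIT4 (0.42), another restrainer. MLST8 (0.19), RRAGA (−0.29) and RRAGB (−0.21), which encode a subunit of the complex and its GTPases, did not pass either. Over all 6 arrays 0 of the 20 were called, and SESN2 was at 0.57 and DDIT4 at 0.14. MLST8, RRAGA and RRAGB were at 0.08, −0.18 and −0.16. The value of SESN2 was 9.44, 9.52 and 7.94 in the TM arrays and 7.87, 7.91 and 9.40 in the control arrays. It thus went with DDIT3. SESN2 lost its call without TM 1 (adjusted p = 0.0701 from limma) and without TM 2 (adjusted p = 0.0920 from limma), and in an unmoderated test (adjusted p = 0.236).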

How the data were processed

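Total RNA of SCC25 cells was hybridised to GeneChip HTA 2.0 arrays, 3 of TM and 3 of control. The values deposited by the authors are on a log2 scale, 1 per transcript cluster, already summarised and normalized. The submitters' processing notes name MAS5. Other settings and the build are not stated in those sources. The number of arrays limits the precision.

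Values were used as deposited, with no filter. Symbols came from the platform annotation, updated by gene ID through the GRCh38.p14 gene table (23777 of 23781 clusters with 1 symbol matched). A gene was represented by its cluster with the highest mean. The comparison of TM with control used limma (lmFit and eBayes, two-sided, version 3.58.1, R 4.3.3), with Benjamini-Hochberg adjustment over 67528 clusters, for all 6 arrays and for replicates 1 and 2. Calls were also counted at the study's own array thresholds, an unadjusted p of 0.05 with a 1.2-fold difference. The limma step was tested on simulated data.

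The 10 genes, the lists and the arrays set apart were chosen with earlier results of these data known. From each list the 3 genes with the smallest p in each direction in replicates 1 and 2 were named, if their unadjusted p was under 0.05, a limit set after the values were seen, with direct partners of the 10 genes. EIF4EBP3 had no cluster with 1 symbol and is not analysed here. No pairing of same-numbered TM and control arrays was assumed. The correlations of their deviations from the group means were −0.177, −0.311 and −0.534. These cannot decide on a pairing, because the ER stress genes of TM 3 and control 3 went against their labels. Alternatives were quantile normalization, median centring, only clusters with a mean above the median, trend and robust options, an unmoderated test, the replicate number as a block, leaving out each array, averaging the clusters of a gene and a 1.5-fold threshold. Promoters were taken from RefSeq. Figures were drawn with matplotlib 3.10.9.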

Additional observations from a re-analysis of the deposited data

How the results depend on the processing

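At an adjusted p of 0.05 the count of the 10 genes called stayed at 0 under every alternative run, with adjusted p values from 0.164 to 0.986 over all 6 arrays and from 0.0865 to 0.994 in replicates 1 and 2. With an unadjusted p of 0.05 and a 1.2-fold difference as thresholds the count was 0 over all 6 arrays under every alternative. A 1.5-fold threshold could not raise a count of 0. Averaging clusters could not change the values of the 10 genes, which have 1 cluster each. In replicates 1 and 2 the count was 0 under the alternatives that kept all of these arrays, except centring on the array median. With centring it was 1, EIF2AK2, which was lower in TM. With that centring 6704 of the 67528 clusters were lower at these thresholds. The log2 fold change of EIF2AK2 in replicates 1 and 2 was −0.35 without TM 1 and −0.11 without TM 2. In alternatives chosen after the values were seen, leaving out an array gave 5 to 7 genes with no overlap between the groups, 5 to 7 of them lower in TM (9.19% to 15.6% of all clusters) and 1 higher, EIF4EBP1 without control 3 (25.5%).

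Quantile normalization turned the direction of EIF2B1 in replicates 1 and 2 (0.030), EIF2B2 over all 6 arrays (0.041), EIF2S3 (0.011 over all 6 arrays and 0.049 in replicates 1 and 2) and PPP1R15B over all 6 arrays (0.037). Centring turned that of EIF4EBP1 over all 6 arrays (−0.029). With an array left out the log2 fold change ran from −0.073 to 0.077 for EIF2B2, from −0.060 to 0.067 for PPP1R15B and from −0.0099 to 0.32 for IFIT2 over all 6 arrays, and from −0.035 to 0.0016 for EIF2B1 and from −0.071 to 0.032 for EIF2S3 in replicates 1 and 2. When replicate number was a block, 0 of the 10 genes were called, and the calls over all clusters in replicates 1 and 2 were 18 higher and 10 lower, against 369 and 456. Centring gave 563 and 1309, trend and robust options 1860 and 2711, the clusters above the median 2708 and 2869, and the unmoderated test 0 and 1. With the clusters above the median 24 targets of ATF4 and CHOP, 4 genes of the eIF2 cycle, 6 interferon-stimulated genes and 2 of mTORC1 were called higher, and 2 of the eIF2 cycle, 1 of mTORC1, 3 of cap binding, 1 of eIF3 and 1 of elongation lower. With centring 1 of cap binding and 1 of elongation were called lower. The unmoderated test called 0 genes of any list. The causes of these changes were not tested.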

Other observations

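The other translation factor genes were also set out by the overlap of the groups. The initiation factor eIF3 binds the small ribosomal subunit. Of its 11 measured subunits 5 had every TM array below every control array and 0 had every TM array above. The 5 were EIF3B, EIF3D, EIF3H, EIF3L and EIF3M. Of 10 measured elongation and termination factors 3 (EEF1A1, ETF1 and GSPT1) lay lower and 0 higher, of 15 genes of cap binding and eIF4F 6 lower and 0 higher, and of the 27 other genes of the eIF2 cycle 6 lower and 0 higher. Of the 17005 clusters with a mean at or above that of EIF2B4, not matched to the levels of these lists, 15.9% lay lower and 13.4% higher, or 33.8% and 5.31% with centring. With the default options of limma and all clusters as deposited, none of the eIF3, elongation or cap binding genes passed in either comparison. With trend and robust options 1 eIF3, 1 elongation and 3 cap binding genes fell in replicates 1 and 2. The same counts fell there with only the clusters above the median. The median log2 fold change over all 6 arrays was −0.06 for eIF3 (−0.02 after quantile normalization, −0.13 with centring) and −0.07 for elongation and termination (−0.03 and −0.14). In replicates 1 and 2 EIF3E was at −0.28, and ABCE1, the gene of the ribosome recycling factor, was at −0.35. EEF2K, the gene of the kinase that inhibits elongation factor 2, was at −0.18 there. Over all 6 arrays EIF3E, ABCE1 and EEF2K were at −0.14, −0.23 and −0.08.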
